A study of Mus musculus with 6 samples.

Results

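The immunoglobulin loci hold the gene segments from which a B cell assembles its antigen receptor: the heavy chain locus Igh, the kappa light chain locus Igk and the lambda light chain locus Igl. On build GRCm38 their measured cytosines ran, from first to last, over chr12:113201972-116017772, chr6:67531692-70747305 and chr16:19036078-19228125. Members were the CpG cytosines of the loci and their flanks that were listed, with at least 10 reads, in at least 2 Tet2 knockout (KO) and at least 2 wild-type (WT) libraries. The rule gave 818 cytosines, of 1548852 that passed it in the whole series. Igk held 508 of them, Igh 268 and Igl 42, and 717 of the 818 were listed in all 6 libraries. The choice used which cytosines were listed, and no methylation value.

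The libraries were enhanced reduced representation bisulfite sequencing (ERRBS), which reads CpG methylation within short restriction fragments and cannot separate 5-methylcytosine from 5-hydroxymethylcytosine. They came from splenic naive B cells, the resting mature B cells that have not met antigen, of C57BL/6 mice with a Tet2 knockout (3 libraries) or a wild-type genotype (3 libraries), with no treatment. The labels name neither the Tet2 allele, nor a Cre driver, nor the age of the mice, nor whether each library came from its own mouse, so p-values measure the spread between libraries, part of which may be technical. All sample labels and the title name naive B cells, but the design text speaks of germinal centre B cells.

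In the bone marrow, the RAG1 and RAG2 recombinase joins V, D and J segments of Igh and V and J segments of the light chain loci, and the DNA between joined segments is deleted or, at Igk, often inverted. Each mature B cell therefore carries its own rearranged alleles. TET enzymes oxidise 5-methylcytosine, and TET2 with TET3 is known to act on enhancers of Igk during B cell development in the mouse.

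The libraries listed 1551481 to 1626375 cytosines each. Their median depth was 92 to 110 reads per cytosine. Their coverage summed over cytosines was 168455105 to 207065050, which counts a read once for each cytosine it covers. Within Tet2 (chromosome 3, 133463677 to 133545136 with 1 kb on each side), 6 cytosines from 133486189 to 133486297 had 28 to 71 reads in every WT library and were listed in no KO library, while the other 111 were listed in all 6. Over gene spans with 1 kb on each side, the B cell receptor genes Cd79a and Cd79b averaged 3.44% and 1.86% methylation in KO libraries, against 2.96% and 1.08% in WT libraries. The T cell genes Cd8a, Zap70 and Cd3g stood at 92.6%, 88.9% and 86.4% in KO libraries, against 93.5%, 87.7% and 84.2% in WT libraries. Cd4, Lck and Thy1 were lower, at 33.1%, 31.9% and 38.4% in KO libraries, against 34.1%, 31.9% and 36.6% in WT libraries, and the median of the 6 T cell genes was 62.4% in KO and 60.4% in WT libraries. Of the list of 9 B cell markers 6 were measured, and Ms4a1, Cr2 and Fcer2a had no cytosine listed in all 6 libraries. Of the markers of other cells, 6 of 8 T cell, 5 of 6 myeloid, 2 of 3 NK cell and 2 of 4 erythroid genes were measured. No tile of any marker list was called, where 0.112% of all 108802 tiles were called higher and 0% lower. The median methylation of the myeloid genes was 93.1% in KO and 93.6% in WT libraries.

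ERRBS fragments start at CCGG sites, and few of the coding segments themselves were measured. 3 windows of 300 bases show what the assay reads here, each running from 250 bases before to 50 after a RefSeq gene start on GRCm38.p6, with the measured CpGs in capitals. Gm46962 is a long non-coding RNA gene among the Igk V segments and was the example inside a locus (chr6:70220655-70220954, minus strand). Igll1, which encodes a chain of the surrogate light chain (chr16:16863936-16864235, minus strand), and Vpreb3, a gene of the same pathway (chr10:75948050-75948349, plus strand), lie outside the loci and are shown for contrast.
Gm46962: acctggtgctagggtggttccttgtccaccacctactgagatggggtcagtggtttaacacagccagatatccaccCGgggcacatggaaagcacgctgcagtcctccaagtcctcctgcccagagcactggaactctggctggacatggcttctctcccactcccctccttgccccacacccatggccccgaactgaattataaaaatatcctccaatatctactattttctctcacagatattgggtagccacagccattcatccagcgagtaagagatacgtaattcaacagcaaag
Igll1: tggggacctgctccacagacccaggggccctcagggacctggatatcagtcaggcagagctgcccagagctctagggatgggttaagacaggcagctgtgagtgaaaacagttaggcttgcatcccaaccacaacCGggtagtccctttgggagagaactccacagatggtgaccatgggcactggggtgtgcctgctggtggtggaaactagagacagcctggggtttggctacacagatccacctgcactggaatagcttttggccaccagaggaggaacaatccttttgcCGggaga
Vpreb3: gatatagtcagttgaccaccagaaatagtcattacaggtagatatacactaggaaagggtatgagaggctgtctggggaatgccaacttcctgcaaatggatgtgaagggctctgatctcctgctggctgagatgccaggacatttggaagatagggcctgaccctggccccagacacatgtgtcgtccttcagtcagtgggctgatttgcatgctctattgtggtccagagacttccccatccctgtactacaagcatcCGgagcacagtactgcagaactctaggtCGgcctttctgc
The Gm46962 window held 5 CpGs, of which 1 was measured, at base 70220877. It read 100%, 95.8% and 95% methylated in KO 1, KO 2 and KO 3, against 94.1%, 100% and 100% in WT 1, WT 2 and WT 3. The 3 measured cytosines of the Igll1 window averaged 4.52% ± 1.95 in KO and 1.97% ± 2.02 in WT libraries (SD, n = 3 each), and the 2 of the Vpreb3 window 0.214% ± 0.370 and 0.355% ± 0.614 in KO and WT libraries. The measured CpG of Gm46962 was therefore almost fully methylated and those of Igll1 and Vpreb3 almost unmethylated, in both genotypes. The recognition site CCGG, searched on both strands at once since it is its own complement, occurred once in the windows of Gm46962 and Vpreb3 and at 2 places in that of Igll1, and 52.8% of the 32851 RefSeq windows of this length held it.

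The members were sparse compared with the rest of the assay. Their median number of measured cytosines within 250 bp, each counting itself, was 5, against 22 over all 1548852 cytosines. Of the members 44.9% had 1 to 4, and 0% had 30 or more, against 17.7% and 42.4% of all cytosines. Per megabase there were 168 members in Igl, 158 in Igk and 95.04 in Igh. No member lay within 500 bp of any of the 4 Igh J, 20 Igh D or 5 Igk J segments, of Igkc, or of the 12 annotated Igl segments. No member lay between Ighm and the nearest J segment either, the stretch that holds the intronic heavy chain enhancer. Of 183 Igh V segments 8 had a member within 500 bp, of 162 Igk V segments 1, and of the 8 Igh constant genes 1.

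Most members were highly methylated. A mean of 90% or more over the libraries was found for 73.1% of members, and a mean of 70 to 90% for another 15.8%, against 27.5% and 6.89% of all cytosines. Below 10% stood 6.97% of members, or 57 cytosines, against 58.8% of all cytosines.

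Mean methylation of each locus, over cytosines listed in all 6 libraries, differed by at most a few percentage points between genotypes. Igh (223 cytosines) averaged 85.8%, 87.0% and 86.5% in KO 1, KO 2 and KO 3, against 85.2%, 85.8% and 85.8% in WT 1, WT 2 and WT 3. The groups overlapped, with KO 1 just below the highest WT library. The difference was 0.800 percentage points between 86.4% ± 0.591 in KO and 85.6% ± 0.339 in WT libraries (SD, n = 3 each; two-sided exact permutation p = 0.3, where 3 against 3 libraries allow no p below 0.1).
Igk (457 cytosines) averaged 84.6%, 84.8% and 84.9% in KO 1, KO 2 and KO 3, against 84.7%, 84.1% and 84.3% in WT 1, WT 2 and WT 3. KO 1 fell within the WT range, and the difference was 0.380 points between 84.8% ± 0.117 in KO and 84.4% ± 0.297 in WT libraries (n = 3 each; two-sided exact permutation p = 0.2). Pooling reads, which weights each cytosine by its coverage, gave differences of 3.36 points for Igh and 3.16 for Igk, and admitting Igh cytosines that 1 or 2 libraries lack gave 1.63.

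Igl (37 cytosines) was lower in every KO library. It averaged 92.1%, 92.3% and 93.4% in KO 1, KO 2 and KO 3, against 94.7%, 94.7% and 95.3% in WT 1, WT 2 and WT 3. The groups did not overlap, and 92.6% ± 0.718 in KO stood 2.33 points below 94.9% ± 0.374 in WT libraries (n = 3 each; two-sided exact permutation p = 0.1, the smallest this design can give). Of the 37 cytosines 26 were lower in KO by their means, 8 higher and 3 equal, with a median difference of -1.30 points.
All 3 KO libraries lay below all 3 WT libraries at 5 of the 37 (13.5%) and above at 0, where the background over all 1457048 cytosines was 2.25% below and 2.97% above. Among all cytosines with 1 to 4 within 250 bp the shares were 3.39% below and 5.47% above. Among those with 5 to 9 they were 3.23% below and 5.59% above. Both methylation classes present in Igl had the same direction: its 7 cytosines at 70 to 90% averaged 81.2% ± 2.50 in KO and 87.1% ± 1.69 in WT libraries, and its 30 at 90% or above 95.2% ± 0.720 in KO and 96.7% ± 0.178 in WT libraries (n = 3 each; exact permutation p = 0.1 for each).

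The gap between Igl and the other immunoglobulin loci was taken within each library. Igl exceeded the mean of Igh and Igk together by 7.05, 6.79 and 8.01 points in KO 1, KO 2 and KO 3, against 9.84, 10.05 and 10.5 points in WT 1, WT 2 and WT 3. The gap was 2.85 points narrower in KO libraries and the groups did not overlap (two-sided exact permutation p = 0.1, n = 3 each). Set against all cytosines with a mean of 70% or more, Igl lay 0.936 points below them in KO libraries (SD 0.885) and 1.89 points above them in WT libraries (SD 0.333), with the same p. Those highly methylated cytosines averaged 93.5% ± 0.167 in KO and 93.0% ± 0.125 in WT libraries. Igh and Igk together averaged 85.3% ± 0.253 in KO and 84.8% ± 0.110 in WT libraries. Both references were higher, and Igl lower, in every KO than in every WT library. The separation of the contrasts follows from these values and is no independent result. Neither contrast was among the planned tests.

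**Figure D1:**
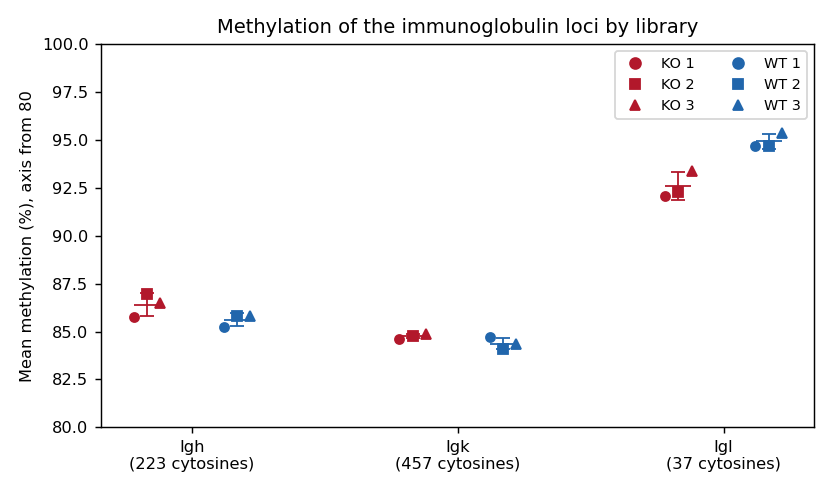
Mean methylation (percent) of the cytosines listed in all 6 libraries for Igh, Igk and Igl, with 1 point per library, KO left of WT in each locus, and lines for the mean and SD (n = 3). The axis starts at 80%. The 3 KO points of Igl lie at 92.1% to 93.4%, below the WT points at 94.7% to 95.3%, whereas in Igh and Igk the groups overlap.

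At single cytosines no member was called. A call needed an adjusted p under 0.05 in a quasi-binomial model of C and T reads, Benjamini-Hochberg adjusted over all cytosines tested, and a difference of at least 10 points. Of the 785 members with some spread between libraries 0 were called in either direction, where the background was 0.000689% higher and 0% lower of 1161183 cytosines. At an unadjusted p under 0.05, 49 members (6.24%) were higher and 32 (4.08%) lower in KO libraries, against 5.3% and 3.17% of all cytosines. With limma on log2 ratios of C to T reads the unadjusted counts were 58 and 21, and again 0 were called. Complete separation of the libraries, KO above WT, was seen at 28 of 717 members (3.91%), and KO below WT at 32 (4.46%), against 2.97% and 2.25% of all cytosines. Among the sparse cytosines of the series, with 1 to 4 within 250 bp, these shares were 5.47% and 3.39%.

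In tiles of 1 kb with at least 3 cytosines, 0 of 92 were called, where the background was 0.112% higher and 0% lower of 108802 tiles. At an unadjusted p under 0.05, 8 were higher (8.70%) and 2 lower (2.17%), against 5.74% and 1.46% of all tiles. Higher in KO without regard to the test were 54 of 92 tiles (58.7%), with a median difference of 0.373 points, against 59.8% of all tiles and a median of 0.176 points. Igk had 37 tiles higher and 20 lower, Igh 17 and 13, and Igl 0 and 5, with medians of 0.859, 0.292 and -2.39 points. The libraries did not overlap in 7 tiles with KO above (7.61%) and in 4 with KO below (4.35%), against 8.35% and 3.36% of all tiles. These shares for the immunoglobulin tiles were near those of the whole series.

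**Figure D2:**
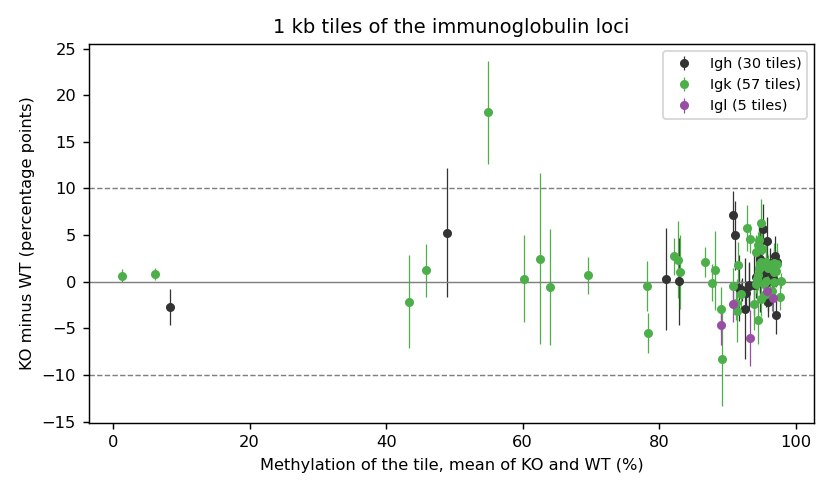
Difference of pooled methylation (percentage points, KO minus WT, with its standard error) of each 1 kb tile of Igh, Igk and Igl against the mean methylation of the tile (percent); dashed lines mark 10 points. The 5 Igl tiles all lie below 0, and Igh and Igk have tiles on both sides of it.

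Among the Igk V segments, the tile chr6:68370001-68371000 read 95.3%, 97.0% and 94.6% in KO 1, KO 2 and KO 3, against 90.6%, 91.7% and 90.7% in WT 1, WT 2 and WT 3. The groups did not overlap, with a difference of 4.61 points and an adjusted p of 0.497 in the quasi-binomial test with Benjamini-Hochberg adjustment. The tile chr6:67655001-67656000 was 6.35 points higher in KO libraries, and its adjusted p was 0.547 in the same test. Of the 3 Igk cytosines with the smallest p, 70053088 averaged 100% in KO and 92.8% in WT libraries. The other two were lower in KO, 67874331 at 93.4% in KO and 100% in WT libraries and 68236147 at 90.8% in KO and 99.8% in WT libraries. Their adjusted p in the quasi-binomial test with Benjamini-Hochberg adjustment were 0.548, 0.548 and 0.552. The 468 members of the Igk V part averaged 90.7% in KO and 90.4% in WT libraries over those listed in all 6. The single Igk V segment with members in reach, the pseudogene Igkv1-136, had 4 of them within its span, at 96.8% ± 1.61 in KO and 98.3% ± 0.779 in WT libraries (SD, n = 3 each). Beyond Igkc, the constant gene, 6 members lay within the long non-coding RNA gene Gm30211, and the 5 listed in all libraries averaged 40.5% ± 3.10 in KO and 40.7% ± 4.07 in WT libraries. That mean joins unlike values: the CpG at 70747210 read 100% on its forward and 0% on its reverse strand in both genotypes.

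In Igh, the most different tile, chr12:115697001-115698000 among the distal V segments, held 8 cytosines and read 89.5%, 97.4% and 95.9% in KO 1, KO 2 and KO 3, against 83.9%, 90.1% and 85.0% in WT 1, WT 2 and WT 3. KO 1 lay below WT 2, so the groups overlapped, and the difference of 7.14 points (standard error 2.56) had a Benjamini-Hochberg adjusted quasi-binomial p of 0.547. A second V tile at chr12:115763001-115764000 read 97.6%, 97.1% and 100% in KO libraries and 91.0%, 89.8% and 95.4% in WT libraries, with no overlap, a difference of 5.66 points and an adjusted p of 0.615 in the same test.
The third Igh tile by p, at 115673001, differed by -2.13 points (adjusted p = 0.728 in that test). The Igh cytosine with the smallest p, 115100120 on the reverse strand, went the other way. It read 89.4%, 84.4% and 85.5% in KO 1, KO 2 and KO 3 and 100% in each WT library, with a Benjamini-Hochberg adjusted quasi-binomial p of 0.548.

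Igl had 2 tiles with the largest differences. The tile chr16:19202001-19203000 read 89.5%, 89.6% and 94.7% in KO 1, KO 2 and KO 3, against 100%, 96.0% and 94.9% in WT 1, WT 2 and WT 3. The groups did not overlap, but KO 3 and WT 3 were almost equal, and the adjusted p of the quasi-binomial test with Benjamini-Hochberg adjustment was 0.751 for a difference of -6.05 points. The tile chr16:19083001-19084000 read 85.2%, 86.2% and 88.6% in KO libraries and 86.7%, 91.8% and 94.1% in WT libraries, with overlap, -4.65 points and an adjusted p of 0.690 in that test.
Within it, cytosine 19083320 on the reverse strand averaged 88.8% ± 1.20 in KO and 97.0% ± 3.41 in WT libraries (n = 3 each), and 19174688 on the forward strand, elsewhere in Igl, 71.2% ± 8.22 in KO and 90.1% ± 7.37 in WT libraries. The third Igl cytosine by p, 19069399 on the forward strand, went the other way: it was listed in 2 libraries of each genotype and averaged 100% in KO and 68.9% in WT libraries, 28.8 points higher in KO by pooled reads. The tile at 19114001 differed by -1.80 points with an adjusted p of 0.864 in the tile test. None of the 3 cytosines was called, with Benjamini-Hochberg adjusted quasi-binomial p of 0.552, 0.558 and 0.559.

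By role along Igh, which is read from high to low coordinates, the stretch beyond Igha, on the side of the 3′ regulatory region that drives class switching, had 19 members. Those listed in all libraries averaged 85.5% ± 1.36 in KO and 84.6% ± 1.35 in WT libraries. The interval of the constant genes, from Igha to Ighm, averaged 89.99% ± 0.433 in KO and 89.3% ± 1.53 in WT libraries, and neither difference exceeded the spread between libraries (two-sided exact permutation p = 0.4 and 0.6, n = 3 each). Ighg2b, which encodes the constant region of IgG2b (chromosome 12, 113304314 to 113307933), was the only constant gene with members and had 3 in its span. They averaged 90.6%, 91.2% and 88.3% in KO 1, KO 2 and KO 3, against 91.8%, 96.4% and 93.3% in WT 1, WT 2 and WT 3. All KO libraries lay below all WT libraries, at 90.1% ± 1.52 in KO and 93.8% ± 2.33 in WT libraries, and no cytosine of Ighg2b was called.

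Of the V segments, Ighv5-1, a pseudogene near the D segments, had 3 members at 98.2% ± 3.04 in KO and 92.2% ± 4.23 in WT libraries (SD, n = 3 each). The groups overlapped, since KO 2 stood at 94.7% and WT 1 at 96.2%. Ighv13-2 averaged 82.8% ± 4.20 in KO and 82.8% ± 6.71 in WT libraries, Ighv5-19 91.0% ± 3.50 in KO and 91.1% ± 9.19 in WT libraries, and Ighv8-10 94.3% ± 2.06 in KO and 94.2% ± 2.68 in WT libraries. Ighv8-7 averaged 97.9% ± 0.773 in KO and 93.2% ± 5.70 in WT libraries, with WT 3 above all KO libraries at 98.9%. Ighv3-8, Ighv1-10 and Ighv5-4 had 1 or 2 members each within 500 bp. For all V segments in reach the methylation stayed high in both genotypes.

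One run of low methylation stood out among the Igh V segments. Its 15 members lay within 150 bp at chr12:114378813-114378962, and the 13 listed in all libraries averaged 2.12%, 10% and 7.33% in KO 1, KO 2 and KO 3, against 17.1%, 5.55% and 8.50% in WT 1, WT 2 and WT 3. The groups overlapped, at 6.48% ± 4.01 in KO and 10.4% ± 6.02 in WT libraries. The 17 Igh cytosines below 10% averaged 4.66% ± 1.18 in KO and 7.53% ± 2.67 in WT libraries without overlap (two-sided exact permutation p = 0.1, n = 3 each). WT 1 was the highest of these libraries, at 10.6%.

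The strands of a CpG usually read alike in methylation, and in the immunoglobulin loci 13 CpGs did not. Of 97 CpGs measured on both strands 13 (13.4%) differed between strands by more than 30 points, against 2.65% of 293841 CpGs in the whole series. The 2 shares are not alike in makeup, since 58.8% of all cytosines but 6.97% of members stood below 10%. A CpG low on both strands cannot differ by 30 points, and no share among methylated CpGs alone was taken. Igk had 10 of 74, Igh 3 of 22 and Igl 0 of 1. Of the 13, 12 formed 6 neighbouring couples 47 to 94 bp apart. In each couple the left CpG was lower on its reverse strand and the right CpG lower on its forward strand.
In Gm30211, the CpG at 70747210 read 100% on the forward strand in every library of both genotypes, and its reverse strand averaged 0% in KO and 0% in WT libraries. Near the end of the Igh V part, the CpG at 116014242 averaged 93.8% in KO and 78.0% in WT libraries on its forward strand, and 0% in KO and 4.85% in WT libraries on its reverse strand. Over the 13 CpGs the median of the lower strand was 2.78% in KO and 3.50% in WT libraries, and that of the higher strand 93.8% in KO and 96.5% in WT libraries. The asymmetry of the readings was thus present in both genotypes. Whether it reflects methylation in the genome or the preparation of the libraries was not tested.
The CpG at 114344116 was the exception to the couples. Its forward strand averaged 91.3% in KO and 92.9% in WT libraries, while its reverse strand read 37.9%, 94.96% and 37.2% in KO 1, KO 2 and KO 3 and 24.7%, 59.5% and 96.8% in WT 1, WT 2 and WT 3.

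**Figure D3:**
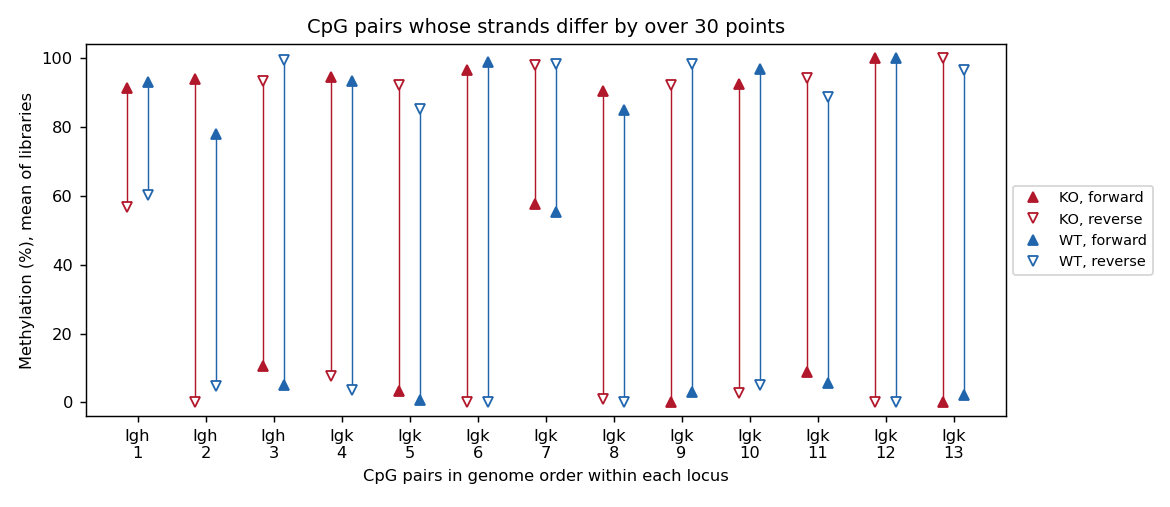
Methylation (percent, mean of the libraries) of the forward strand (filled triangles) and the reverse strand (open triangles) of the 13 CpGs whose strands differed by more than 30 points, in genome order within each locus, with KO left of WT. At each of the 13 CpGs the same strand is the lower one in KO and WT libraries.

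Coverage was compared as reads per cytosine over the median of the library. In Igh the median of its cytosines was 0.717, 0.686 and 0.594 in KO 1, KO 2 and KO 3, against 0.323, 0.600 and 0.614 in WT 1, WT 2 and WT 3. WT 1 was far below the other WT libraries, and the KO and WT groups overlapped (1.35-fold, two-sided exact permutation p = 0.3, n = 3 each). Without WT 1 the fold was 1.09.
In Igk it was 0.815, 0.873 and 0.849 in KO 1, KO 2 and KO 3, against 0.455, 0.718 and 0.802 in WT 1, WT 2 and WT 3, and in Igl 0.859, 0.853 and 0.953 in KO libraries, against 0.545, 0.664 and 0.772 in WT libraries. Both were higher in every KO than in every WT library, 1.32-fold for Igk and 1.36-fold for Igl (two-sided exact permutation p = 0.1 for each). Without WT 1 the folds were 1.11 and 1.24.
For comparison, all sparse cytosines of the series, with 1 to 4 within 250 bp, stood at 0.852 ± 0.0802 in KO and 0.636 ± 0.116 in WT libraries, 1.35-fold (p = 0.1 in the same exact test). Coverage was therefore also scaled to cytosines of the same library with the same density and methylation class, a scale chosen after seeing the data. On that scale the folds were 1.004 for Igh, 1.006 for Igk and 1.005 for Igl (exact permutation p = 1 for each). In bulk DNA, fewer copies of a sequence among the cells and poorer recovery of its fragments cannot be told apart.

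**Figure D4:**
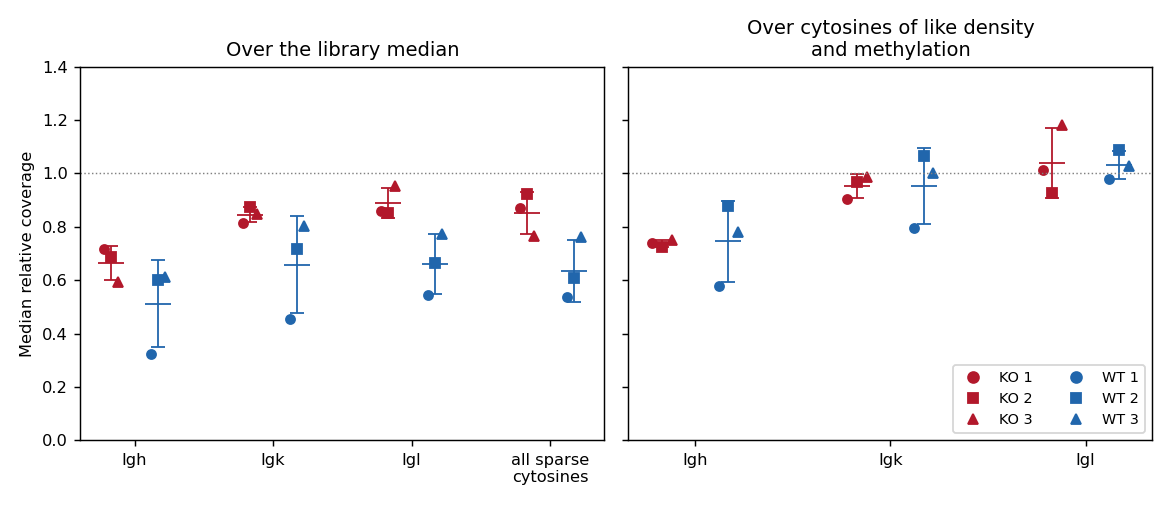
Median relative coverage of Igh, Igk and Igl, over the library median in the left panel, where all sparse cytosines are added, and over cytosines of the same density and methylation class in the right panel. Points are libraries, KO left of WT, with mean and SD (n = 3). On the left WT 1 is the lowest point of each immunoglobulin locus, and on the right the genotypes overlap in all 3.

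Coverage summed over the cytosines of each tile, which counts a read once per cytosine it covers, was compared with edgeR's quasi-likelihood test. Of 92 immunoglobulin tiles 0 passed a Benjamini-Hochberg adjusted p under 0.05 and 1.5-fold. The background was 0.421% higher and 0.00551% lower of 108943 tiles. At an unadjusted p under 0.05, 15 were higher (16.3%) and 4 lower (4.35%), against 13.4% and 6.37% of all tiles. DESeq2 called 1 tile higher, where it called 1424 higher and 153 lower of all 108943 tiles. The fit without KO 3 called 3 higher and 1 lower, against 1645 and 78 of all tiles. That without WT 2 called 1 higher, against 1095 higher and 22 lower of all tiles. That without WT 3 called 2 higher, against 2789 higher and 253 lower of all tiles. The tile nearest the threshold was chr12:115763001-115764000, with summed relative coverage of 3.58, 4.05 and 2.65 in KO 1, KO 2 and KO 3, against 0.899, 1.43 and 1.72 in WT 1, WT 2 and WT 3. No KO library overlapped a WT library there, and the log2 fold change was 1.27 (edgeR, Benjamini-Hochberg adjusted p = 0.0695); DESeq2 gave 1.23 with an adjusted p of 0.0288, and over all alternatives the adjusted p ran from 0.0288 to 0.365.
It is the V tile whose methylation was given above. The Igh tiles at 115466001 and 115938001 had log2 fold changes of 1.23 and 1.41, with adjusted p of 0.0856 and 0.0939 in the edgeR test. In Igk the tiles with the smallest p, at 68722001, 68663001 and 67663001, had log2 fold changes of 0.89, 0.89 and 0.69, with adjusted p of 0.117, 0.117 and 0.145. In Igl the tile at 19202001 had a log2 fold change of 0.88 and an adjusted p of 0.258, while those at 19069001 and 19083001 were near 0, at 0.08 and -0.057, and each changed sign under some alternatives.

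Within Igh the coverage differed between intervals in all libraries, without 1 common order along the V intervals. On the class scale, where 1 is a typical cytosine of the same density and methylation, the interval of the constant genes had 1.49 ± 0.0675 in KO and 1.42 ± 0.230 in WT libraries. The first V interval, next to the D segments (chr12:113526810-114000000), had 0.455 ± 0.00681 in KO and 0.388 ± 0.111 in WT libraries (SD, n = 3 each; two-sided exact permutation p = 0.4). The ratio of that V interval to the constant genes, on the scale of the library median, was 0.321, 0.303 and 0.295 in KO 1, KO 2 and KO 3, against 0.167, 0.328 and 0.385 in WT 1, WT 2 and WT 3. Every library thus had less coverage over the D-proximal V segments than over the constant genes, and the genotypes overlapped.
Of the 38 members in the first V interval 21 were listed in all 6 libraries (55.3%), against 94.1% of all cytosines that pass the rule and 86.3% of the sparse ones, so that values below 10 reads are missing from these medians. The T cell receptor locus Tra/Trd had a lower share, 96 of 260 (36.9%). The 2 cytosines between the J and D segments listed in all libraries had 0.235 in KO and 0.322 in WT libraries.

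The later V intervals followed in steps of 500 kb. The second had 0.552 ± 0.0349 in KO and 0.760 ± 0.140 in WT libraries, with every KO library below every WT library (two-sided exact permutation p = 0.1, n = 3 each). Over the library median the groups overlapped there, at 0.517 in KO and 0.583 in WT libraries (p = 0.5 in the same exact test). The next 3 had 0.780, 0.775 and 0.864 in KO libraries, against 0.594, 0.577 and 0.739 in WT libraries, and the groups overlapped in each. Among 4447 windows of 500 kb on the autosomes, whose median was 0.986 and whose 5th and 95th percentiles were 0.730 and 1.19, 4 windows (0.0899%) were lower than the first V interval in the mean of the 6 libraries. The second interval had 1.57% of the windows below it, and the constant genes 99.6%. Igk and Igl had 41.1% and 64.7% of windows below them, and the T cell receptor locus Tra/Trd 32.2%. These ranks describe the libraries and are no test.

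**Figure D5:**
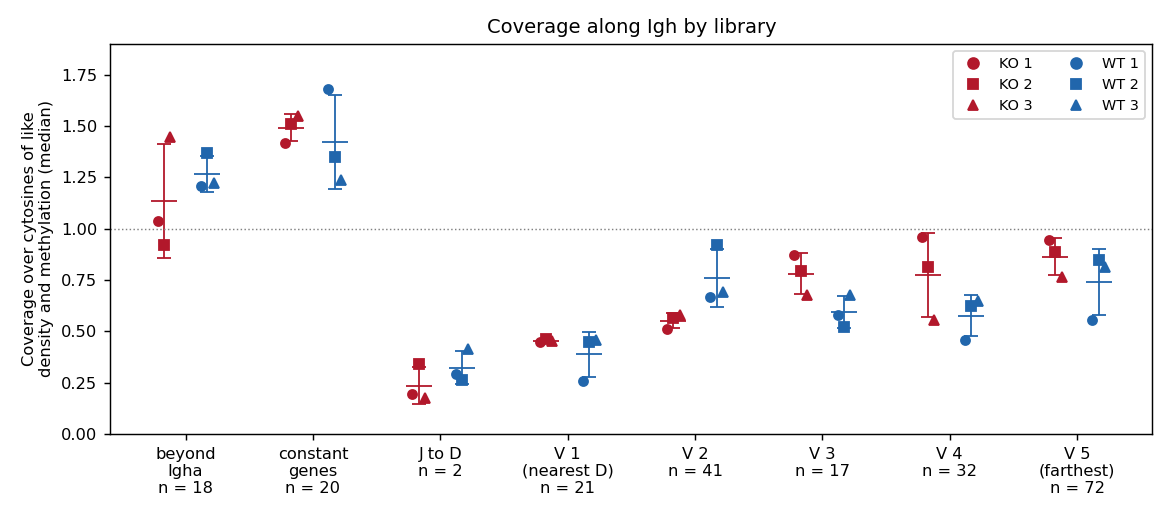
Median coverage on the class scale for consecutive intervals of Igh, with 1 point per library, KO left of WT, mean and SD (n = 3), and the number of cytosines listed in all 6 libraries under each interval. The interval of V segments nearest to the D segments lies at 0.455 in KO and 0.388 in WT libraries, and the constant genes lie at 1.49 in KO and 1.42 in WT libraries.

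A pair of cytosines in the immunoglobulin loci was listed in every KO library and in no WT library. Both lie in the Igh V part, at 114574438 and 114574445 on the forward strand, and had 15, 20 and 13 reads in KO 1, KO 2 and KO 3. That is 0.200% of the 1002 immunoglobulin cytosines listed in any library, against 0.0979% of the series, and 0 were listed in all WT and no KO libraries, against 0.0357%. Sites of under 10 reads are not listed, so the WT libraries may hold up to 9 reads there.

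The genes that act on the loci had no called tile either. Over all 108802 tiles 59.8% were higher without regard to the test, and 0.112% were called higher and 0% lower. At that share, 0 calls in lists this short say little about the genes. Of the genes of V(D)J recombination 12 of 13 had a tile, with 27 of 40 tiles higher and 13 lower without regard to the test, and 0 called in either direction. Rag1, which encodes the recombinase, averaged 80.8% ± 1.42 in KO and 79.6% ± 1.36 in WT libraries over 26 cytosines, and Dntt, which encodes the polymerase that adds bases at the joints, 0.812% in KO and 0.966% in WT libraries. For class switching and hypermutation all 12 genes had a tile, with 25 of 45 higher, 20 lower and 0 called.
Of the surrogate light chain and its partners all 6 had a tile, with 2 of 7 higher, 5 lower and 0 called. Vpreb1 averaged 79.4% ± 4.25 in KO and 74.6% ± 5.70 in WT libraries, Vpreb2 96.8% ± 1.07 in KO and 94.6% ± 1.504 in WT libraries, and Igll1 4.64% ± 2.64 in KO and 4.39% ± 3.67 in WT libraries (SD, n = 3 each). Vpreb1 and Vpreb2, which pair with Igll1 in pre-B cells, were thus mostly methylated in the naive cells of both genotypes.

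The T cell receptor loci, which naive B cells do not rearrange, were the nearest comparison. Of the cytosines that pass the rule, 96 of 260 (36.9%) in Tra/Trd were listed in all 6 libraries, 68 of 73 in Trb and 21 of 25 in Trg. Tra/Trd averaged 88.3% in KO and 86.6% in WT libraries, Trb 76.1% in KO and 75.8% in WT libraries, and Trg 90.6% in KO and 91.9% in WT libraries (two-sided exact permutation p = 0.2, 0.9 and 0.8, n = 3 each). Their coverage over the library median was 1.42-fold, 1.54-fold and 1.51-fold in KO relative to WT, next to 1.35-fold, 1.32-fold and 1.36-fold for Igh, Igk and Igl. Without WT 1 the folds of Tra/Trd, Trb and Trg were 1.18, 1.18 and 1.13. On the class scale they were 1.08, 1.34 and 1.33, and without WT 1 0.992, 1.16 and 0.990. Trb was higher on that scale in every KO than in every WT library (two-sided exact permutation p = 0.1, n = 3 each). The groups overlapped there for Tra/Trd and Trg (two-sided exact permutation p = 0.6 for each, n = 3 each).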

How the data were processed

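Reads were aligned with Bismark to GRCm38, per the submitters' processing notes, with version, trimming and duplicate handling not given in the sources used here. There is 1 table of CpG cytosines, by strand, for each library. The deposited coverage is a read count per cytosine, without normalization, and holds no count below 10, per the file headers and values. Methylation was deposited as the percent of C and of T among the covering reads. Multiplying it by the coverage gave C and T read numbers, whole in 100% of values within 0.0005%. Reads with another base (0.0178% to 0.0190% per library) were left out. Reads without molecular identifiers are not independent molecules, so the depth limits precision only as counting error, and every test uses the variation among libraries as its error.

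The members and gene lists were chosen with earlier results of these data known. Methylation was tested with a quasi-binomial model, with overdispersion moderated by limma (3.58.1), held at 1 or above, an F test and Benjamini-Hochberg adjustment over all cytosines or 1 kb tiles of at least 3 cytosines. Features without spread between the libraries of a genotype were left out, as 33 members were. Tile coverage was tested with edgeR (4.0.16, quasi-likelihood, TMM), with DESeq2 (1.42.0) as an alternative, in R 4.3.3. Locus means of 3 against 3 libraries were compared with two-sided exact permutation tests in Python 3.11.15 with numpy 2.4.6, pandas 2.3.3 and scipy 1.17.1. Methylation values are means over cytosines listed in all 6 libraries unless reads are said to be pooled. Tiles and cytosines were to be named by the 3 smallest p in each locus, of which the text describes a part; V families are given by segment, since so few segments had members; the run of low methylation, the couples of strands and the segments were chosen after their values were seen. On simulated data, the tile test recovered 40 of 50 gains and 46 of 50 losses of 20 points, the cytosine test 4 of 50 gains and 4 of 50 losses of 20 points and 31 of 50 gains and 28 of 50 losses of 40 points, and the coverage test 76 of 100 2-fold gains and 74 of 100 2-fold losses. Some results that the rule for named tiles and genes would give are not reported here. Gene positions and sequences came from RefSeq tables of GRCm38.p6. No pair of libraries had equal coverage at more than 1.32% of cytosines.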

Additional observations from a re-analysis of the deposited data

How the results depend on the processing

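Under every alternative run, 0 immunoglobulin cytosines and 0 tiles were called for methylation: other coverage limits, no moderation, limma, equal weights, features without spread kept (added after seeing the data), the replicate block and each library left out. The direction of each locus mean held under all of them. Leaving out each library in turn gave 0.521 to 1.11 points for Igh, 0.242 to 0.538 for Igk and -2.74 to -2.07 for Igl, and coverage folds of 1.09 to 1.51, 1.11 to 1.48 and 1.24 to 1.47. A minimum of 20 reads gave -1.60 points for Igl. Tiles called for coverage numbered 0 in the main analysis, 1 with DESeq2, 2 with the replicate block (both higher) and 0 to 4 with each library left out. Of all 108943 tiles the replicate block called 3052 higher and 76 lower, against 459 and 6 in the main analysis. The deviations of same-numbered libraries from their group means had r between 0.00266 and 0.0202 for methylation, and between -0.285 and 0.124 for log2 coverage. With 3 libraries per genotype these values cannot show whether libraries of the same number were paired. In the whole series the counts moved more: 8 cytosines called higher became 0 to 29, 122 tiles 0 to 142, and 459 coverage tiles 1 to 3052. Of 343 alternative values of the 27 tiles and cytosines chosen by rule, 328 kept direction and call, 9 (all of coverage tiles) became called and 6 changed sign. Those that changed sign were the coverage log2 fold changes of the Igl tile at 19069001, 0.08 in the main analysis, -0.0084 with tiles of at least 1 cytosine, -0.12 among highly methylated tiles alone (added after seeing the data), and -0.024 to 0.16 with a library left out, and of the Igl tile at 19083001, -0.057 in the main analysis, 0.017 with the library median as size factor, and -0.21 to 0.10 with a library left out; the cause was not tested. Depth limits single cytosines most, since no value rests on fewer than 10 reads but members below that are not listed.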
